A study of Mus musculus with 2 samples.

Results

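The cells described here are regulatory T cells of tumour-bearing mouse lung, defined by their RNA. A cell was a member when it held at least 1 UMI (unique molecular identifier, the tag that counts 1 captured RNA molecule) of a CD3 gene (Cd3e, Cd3d or Cd3g) and at least 1 UMI of Foxp3, and no UMI of Cd8b1 (CD8 T cells), Cd79a (B cells), Csf3r (neutrophils) or C1qa (macrophages). This rule found 255 members among 11905 sequenced cells, 132 of 5702 in the library called PBS and 123 of 6203 in the library called DT. The main comparison cells were T cells of the same library with Cd4 detected, Foxp3 not detected and the same exclusions, 295 in PBS and 298 in DT. Within these, the 116 and 115 cells with Pdcd1 detected served as a second comparison.

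Both libraries came from CD45-positive, DAPI-negative cells, that is living leukocytes, sorted from lungs of Scgb1a1cre/iDTR mice. In these mice Cre driven by the club cell gene Scgb1a1 serves to give airway club cells the diphtheria toxin receptor (iDTR), and HKP1 lung tumour cells were given by tail vein. Mice of both groups were given tamoxifen (2 mg per 20 g on 5 days, days 3 to 7), 1 dose of an antibody to PD-1 (250 µg per mouse on day 6) and irradiation of 4 Gy on each of 3 days (days 10 to 12). The DT group, by the series' design text, was given diphtheria toxin (600 ng per 20 g, 2 doses, days 8 and 9) to remove club cells, and the PBS group was its control. The protocol given with the samples names the toxin for both libraries alike, so that PBS mice had none is read from the design text. Lungs were taken 24 to 48 h after irradiation. There was no unirradiated group and no group without the antibody. The study lists 4 mice per group, but each group was 1 library, and which mouse a cell came from is not recorded in the labels. Cells of 1 library are not replicates, so no test between PBS and DT was possible: intervals are exact 95% intervals that cover counting error only, and a difference between the groups cannot be told apart from one between the libraries or their animals.

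Regulatory T cells are CD4 T cells that restrain other immune cells. Their identity rests on the transcription factor Foxp3, and they act through high-affinity capture of IL-2 (Il2ra), removal of costimulatory ligands by CTLA-4, activation of latent TGF-beta, and cytokines such as IL-10. Resting members recirculate through lymphoid organs with Ccr7, Tcf7 and Klf2, whereas effector members in tissue carry Klrg1, the IL-33 receptor (Il1rl1) and, in the lung, the epithelial growth factor amphiregulin (Areg). In tumours they are known for high Tnfrsf4, Tnfrsf9 and Ccr8.

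A median of 3764.5 UMIs per member was seen in PBS and 4035 in DT, with medians of 1752 and 1898 genes. Summed over members, the libraries gave 724320 and 687193 UMIs, so a gene with 0 UMIs could still be present at up to 4.14 CPM (UMIs scaled to a constant library total) in PBS members and 4.37 CPM in DT members, the level of 3 UMIs. In all, 8 barcodes occurred in both libraries, none of them a member or comparison cell. The libraries differed in the sex of their cells. Of members with RNA of Xist or of a Y-linked gene (Ddx3y, Eif2s3y, Kdm5d, Uty), 76 were male-called and 6 female-called in PBS, with 1 cell holding both, whereas 12 were male-called and 74 female-called in DT. Sex and toxin therefore cannot be told apart over all members, and values within called cells are given below.

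The label held up against its markers, of which Foxp3 chose the cells and cannot count. The other markers were Ctla4, Ikzf2 (Helios, a transcription factor of regulatory T cells), Il2ra and Tnfrsf4 (OX40). At least 2 of these 4 were detected in 120 of 132 PBS members and 117 of 123 DT members, against 36.3% and 39.9% of Foxp3-negative Cd4 T cells. Ikzf2 was seen in 94.7% and 95.1% of members and in 29.5% and 28.2% of the comparison cells. Il2ra was seen in 51.5% and 57.7% of members against 12.2% and 12.4%. In B cells and neutrophils, taken as background, the shares of these 4 genes were between 0.256% (Ctla4, PBS neutrophils) and 2.21% (Ikzf2, PBS neutrophils), at median depths of 2261 to 2894 UMIs. Activated cells came closer: of Foxp3-negative cells with Pdcd1 detected, 75.0% and 77.4% held at least 2 of the 4 markers. Their median depth was 5485.5 and 5226 UMIs, above that of the members.

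The edge of the rule lies between 1 and 0 Foxp3 UMIs. Members with a single Foxp3 UMI numbered 50 in PBS and 41 in DT, and 84.0% and 90.2% of them held at least 2 of the other 4 markers, whereas just outside the rule the Foxp3-negative Cd4 T cells stood at the 36.3% and 39.9% given above. Cd4 itself was detected in 62 members of each library. A further 35 PBS and 47 DT cells had CD3 and Foxp3 but were left out for an exclusion gene, most often Cd8b1 in PBS (14 cells) and Csf3r in DT (23 cells). Foxp3 (chrX:7573644-7595245, plus strand, GRCm38, GENCODE M21 annotation) was not detected in B cells of either library and was detected in 0.0603% of DT neutrophils, and in 2.49% and 4.26% of CD8 T cells.

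**Figure D1:**
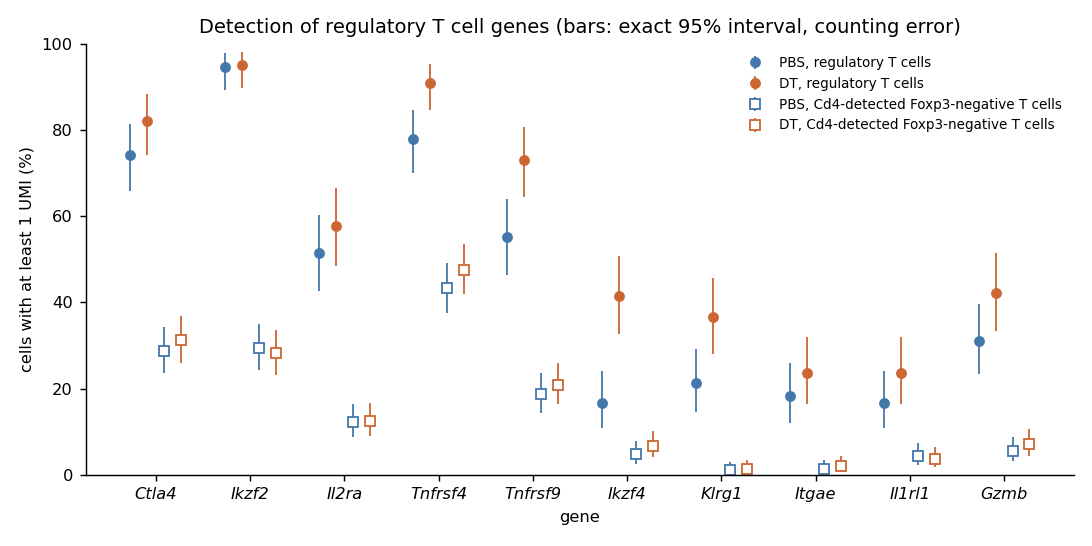
Percent of cells with at least 1 UMI of each gene (y axis) for 10 genes (x axis), in regulatory T cells (filled circles) and Cd4-detected Foxp3-negative T cells (open squares) of the PBS and DT libraries, with exact 95% intervals for counting error. Every gene plotted was seen in a larger share of regulatory T cells than of the comparison cells of the same library, and Ikzf4 and Klrg1 differed most between the libraries in relative terms.

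Over all cells, the shares of regulatory T cells in the libraries were not apart beyond counting error. They made up 2.31% of all PBS cells (interval 1.94% to 2.74%) and 1.98% of all DT cells (1.65% to 2.36%), a DT over PBS ratio of 0.857 with an interval of 0.665 to 1.10. Of T cells they were 10.0% (132 of 1320) and 9.39% (123 of 1310). Among T cells with Cd4 detected, under the same exclusions, they were 17.4% (62 of 357) and 17.2% (62 of 360), a ratio of 0.992 (0.686 to 1.43). All 3 intervals include 1, and they leave room for a difference of the size of their bounds. Counted within male-called cells the ratio of shares of all cells was 0.431 (0.213 to 0.797), and within female-called cells it was 2.32 (1.02 to 6.53), so these intervals exclude 1 in opposite directions. Male calls made up 92.7% of called members against 87.2% of all called cells in PBS, and 14.0% against 31.9% in DT.

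The first comparison asked what set regulatory T cells apart from other Cd4 T cells of the same lungs. Genes with at least 20 UMIs over both kinds of cell were compared as log2 ratios of CPM with 5 CPM added to both sides, and a ratio of at least 1.5 either way is called higher or lower. In PBS, 9.61% of 8918 genes were higher and 9.11% lower in regulatory T cells, and in DT 11.4% of 8846 were higher and 11.9% lower. Of the list of identity genes, which includes the markers above, and with Foxp3 left out because it chose the cells, 14 of 16 measured in PBS and 12 of 15 in DT were higher, with medians of 1.45 and 1.23 on the log2 scale against 0.04 and 0.02 over all genes. Beyond the rule gene Foxp3, the log2 ratio in PBS and DT was 2.76 and 3.01 for Il2ra, 2.75 and 2.99 for Ikzf2, and 2.54 and 2.30 for Ctla4. Izumo1r (folate receptor 4, a surface marker of regulatory T cells) stood at 1.41 and 1.23 and Lrrc32 (GARP, which tethers latent TGF-beta to the cell surface) at 2.32 and 1.57. Nrp1, used as a marker of thymus-derived regulatory T cells, had negative ratios, -0.57 in PBS, within 1.5-fold, and -0.74 in DT.

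Gm28112 was among the 12 genes with the largest ratios, at 2.60 in PBS and 3.24 in DT. The annotation places this non-coding transcript (chr1:69660187-69662061, minus strand, GRCm38) within an intron of Ikzf2 on the same strand (chr1:69531214-69687245). How reads were assigned between them is not given in the sources used here, so unspliced Ikzf2 RNA and Gm28112 cannot be told apart. The other named genes were Tnfrsf9, Gzmb, Ccr2, Hopx, Glrx, Arl5a and Gimap7. Ccr2, the receptor that draws cells to inflamed tissue, was detected in 42.4% and 43.9% of regulatory T cells against 15.6% and 9.40% of Foxp3-negative Cd4 T cells. Hopx, a small homeodomain cofactor, had log2 ratios of 2.32 and 1.87, and Glrx, a thiol oxidoreductase, 2.29 and 1.94.

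Costimulatory receptors of the TNF receptor family were above their level in Foxp3-negative cells in 9 of 9 measured genes in each library, 5 of them at least 1.5-fold in PBS and 7 in DT. Tnfrsf9 (4-1BB) held 639 CPM in PBS regulatory T cells and 998 CPM in those of DT, against 140 and 204 CPM. Tnfrsf4 stood at 1234 and 1797 CPM, with log2 ratios of 1.48 and 1.55. In Pdcd1-detected Foxp3-negative cells Tnfrsf9 stood at 223 and 342 CPM and Tnfrsf4 at 675 and 997 CPM, also below the regulatory T cells. Inhibitory receptors went the other way. Of 10 measured in PBS and 11 in DT, Ctla4 alone was at least 1.5-fold higher, while 6 and 7 were lower. Among the lower was Lag3, a receptor for MHC class II, at -0.78 and -1.23. Pdcd1 (PD-1) was lower in PBS at -0.76 and within 1.5-fold in DT at -0.50. Pdcd1 chose the second comparison cells, so it was not compared with them.

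Effector and tissue genes were higher in regulatory T cells for 15 of 26 genes in PBS and 19 of 27 in DT, and lower for 1 and 2, with medians of 0.71 and 0.79. Against Pdcd1-detected Foxp3-negative cells 13 of 26 were higher and 3 lower in PBS (median 0.55), and 11 of 26 were higher and 3 lower in DT (median 0.31), where 12.4% of all genes were higher and 12.3% lower. The clearest was Klrg1 (chr6:122270596-122282882, minus strand), an inhibitory lectin receptor of terminally differentiated lymphocytes, detected in 28 of 132 PBS and 45 of 123 DT members but in 1.02% and 1.34% of Foxp3-negative Cd4 T cells. Itgae (CD103, an integrin that binds epithelial E-cadherin) had log2 ratios of 2.84 and 3.07, and Il10 had 2.65 and 1.88. Gzmb, the cytotoxic protease granzyme B, had 1.99 and 3.25. Conversely, the effector cytokine genes of conventional T cells were low. Ifng was detected in 3 PBS and 4 DT members, at 5.52 and 10.2 CPM, whereas the Foxp3-negative cells held 215 and 252 CPM. Of the list of conventional cytokines, 8 of 9 measured genes in PBS and 7 of 10 in DT were at least 1.5-fold lower, including Tnfsf8 (CD30 ligand, -3.26 and -3.75) and the chemokine Ccl3 (-2.36 and -5.41). Il4, Il13, Il21 and Csf2 had no UMI in members of either library.

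Among the named genes that were lower in regulatory T cells, Igfbp4, an insulin-like growth factor binding protein of naive Cd4 T cells, was seen in 1 PBS and 2 DT members, against 24.1% and 26.5% of the comparison cells. It was as scarce in Pdcd1-detected Foxp3-negative cells of DT, where it had 1 UMI, and had 18 UMIs in those of PBS. Xcl1, a chemokine that attracts cross-presenting dendritic cells, had 3 and 2 UMIs against 524 and 330. Nrgn had 1 UMI in each library against 245 and 289. Ccl1, the ligand of Ccr8, had no UMI in PBS members, at least 105-fold below the Foxp3-negative cells, and 3 UMIs in DT members.

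All 26 cell cycle genes had higher levels in regulatory T cells than in Foxp3-negative cells of the same library, 17 of them at least 1.5-fold in PBS and 25 in DT, with medians of 0.68 and 1.30. Mki67, the proliferation antigen Ki-67, was seen in 21 PBS and 24 DT members and had log2 ratios of 1.35 and 1.40. Interferon-stimulated genes differed in this respect between the libraries. In PBS, 17 of 30 were at least 1.5-fold higher in regulatory T cells and 1 lower, with a median of 0.67. In DT, 5 of 31 were higher and 5 lower, with a median of 0.01. Against Pdcd1-detected cells, 21 of 30 were higher and 2 lower in PBS (median 0.77), and 9 of 29 were higher and 5 lower in DT (median 0.36). Resting and homing genes were lower for 8 of 16 genes in PBS and 13 of 16 in DT. Against Pdcd1-detected Foxp3-negative cells, 12 of 14 resting genes were higher and 1 lower in PBS (median 1.12). There 12% of all genes were higher and 11% lower. In DT, 7 of 15 resting genes were higher and 5 lower (median -0.12), where 12.4% of all genes were higher and 12.3% lower. The comparison cells of the DT library also carried RNA of other cells: the 12 endothelial and stromal marker genes summed to 949 UMIs there against 125 in PBS, while DT and PBS regulatory T cells held 42 and 50. The part of that RNA in the ratios to Foxp3-negative cells was not tested.

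The second comparison asked how regulatory T cells of toxin-treated mice differed from those of control mice. Of 7500 genes with at least 20 UMIs over both, 8.53% were at least 1.5-fold higher in DT and 6.25% lower, with a median log2 ratio of 0.05. In Foxp3-negative Cd4 T cells, with more cells and 9768 genes measured, the shares were 6.13% and 3.61% and the median 0.06. Ratios above 0 were held by 4086 of the 7500 genes in regulatory T cells and 5675 of the 9768 in Foxp3-negative cells. These values over all genes are the background for the list counts below. Foxp3, which chose the members in both libraries, held 457 CPM in PBS members and 477 CPM in DT members. Of the 16 other identity genes measured, 3 were higher in DT and 1 lower, with a median of 0.22 against 0.29 in Foxp3-negative cells. With Foxp3 counted the median was 0.11, and it was 0.60 among the members with Cd4 detected. Values for Foxp3-negative cells are given beside those of regulatory T cells, and the difference between the 2 kinds of cell was not tested.

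Effector and tissue genes were at least 1.5-fold higher in DT for 8 of 27 genes and lower for 1, with a median of 0.23. The list had much the same median in Foxp3-negative Cd4 T cells, 0.24, with 5 of 25 higher and 2 lower, so the list as a whole was not apart from theirs and the single genes follow. Areg (chr5:91139599-91148432, plus strand), which promotes epithelial repair, had 2 UMIs in 1 PBS member and 56 UMIs in 13 DT members, a log2 ratio of 3.48. No more than 17 of those 56 UMIs came from 1 cell. In B cells and neutrophils Areg was seen in 0.0685% to 0.256% of cells, and in Foxp3-negative Cd4 T cells its log2 ratio was 0.53. When cells with an exclusion gene were also counted as members, the Areg ratio was 0.80, so its size depended on that step of the rule. Il1rl1 (chr1:40429570-40465415, plus strand) had 35 UMIs in 22 PBS members and 75 UMIs in 29 DT members, a log2 ratio of 1.10 with an interval of 0.58 to 1.80. Areg and Il1rl1 are also markers of type 2 innate lymphoid cells. Of 8 such markers in the table, 4 were measured and 3 higher (Areg, Il1rl1 and Cxcl2), with a sum of 345 CPM in PBS members and 552 CPM in DT members against 246 and 194 CPM in Foxp3-negative cells. Il13 was at 0 in members of both libraries, Il17rb had 5 UMIs in each, and the part of such cells in these ratios was not tested. Klrg1 was seen in 21.2% of PBS and 36.6% of DT members, and the levels, 112 and 162 CPM, gave a log2 ratio of 0.51 (0.10 to 0.96), under the 1.5-fold limit. With each cell thinned to 2000 UMIs the shares were 16.1% and 26.9%.

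Gzmb (chr14:56258838-56262260, minus strand) was the effector gene with the most UMIs behind a difference. It held 387 CPM in PBS members and 923 CPM in DT members (280 and 634 UMIs, in 41 and 52 cells), a log2 ratio of 1.24 with an interval of 1.05 to 1.46. In Foxp3-negative Cd4 T cells it was 93.8 and 92.5 CPM. The most Gzmb-rich member supplied 16.4% of the UMIs in PBS and 11.4% in DT, and without the richest member of each library the log2 ratio was 1.33. Rora, a nuclear receptor of tissue lymphocytes, had a log2 ratio of 0.90 and Ccr8, a chemokine receptor of tumour regulatory T cells, 1.01. Penk, the enkephalin precursor, had 4 UMIs in PBS and 88 in DT, of which 49 came from 1 cell, and it was also higher in the Foxp3-negative cells, by 2.25. Nfil3, a transcription factor of type 2 and regulatory lymphocytes, and Tff1, a trefoil peptide, were the other higher genes, at 0.63 and 0.74, and Irf4, which drives effector differentiation, was the lower gene at -0.66 on 22 and 12 UMIs. Icos, Maf and S100a6 were not among the higher genes, at -0.25, -0.29 and -0.33.

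**Figure D2:**
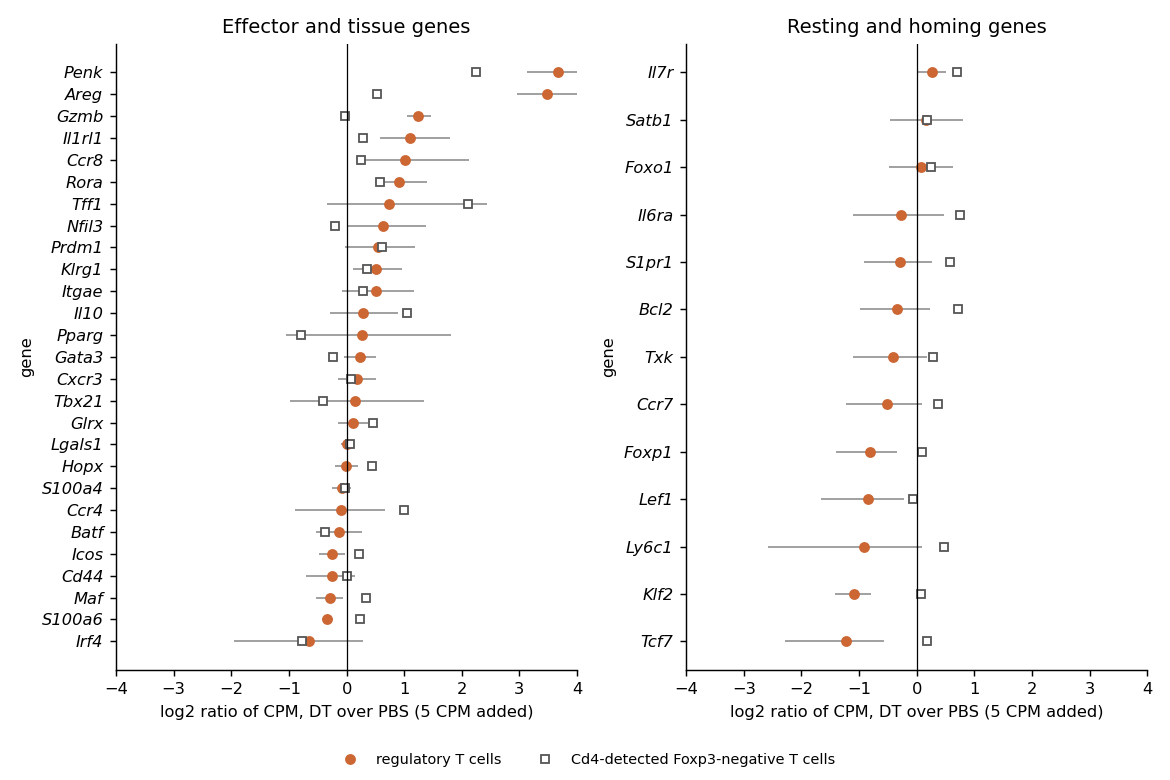
Log2 ratio of CPM, DT over PBS, with 5 CPM added to both sides (x axis), for measured effector and tissue genes (left) and resting and homing genes (right) in regulatory T cells (filled circles) and Cd4-detected Foxp3-negative T cells (open squares). Grey bars are exact 95% intervals of the plain UMI ratio in regulatory T cells and end at the axis limits where they pass them. Areg, Gzmb and Il1rl1 lie to the right and Tcf7, Klf2 and Lef1 to the left in regulatory T cells, while the open squares of Gzmb, Tcf7, Klf2 and Lef1 lie near 0.

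Of the suppressive mediators, 5 of 17 were higher in DT and none was lower, with a median of 0.26, and in Foxp3-negative cells 4 of 17 were higher and 1 lower, with a median of 0.33. They were Areg and Gzmb, named above, Itgav, Pdcd1 and Ebi3. Itgav, the integrin alpha-v chain that pairs with Itgb8 to release active TGF-beta, was detected in 49 of 132 PBS members and 80 of 123 DT members, with 105 and 206 UMIs and a log2 ratio of 1.02 (0.70 to 1.40). In Foxp3-negative cells the Itgav ratio was 0.33. Itgb8 itself had 24 and 31 UMIs, a ratio of 0.39 whose interval of -0.37 to 1.28 includes 0, and Lrrc32 stood at -0.30 (-1.47 to 0.71). Of the other genes of the TGF-beta pathway, Smad2 was lower at -0.59 and the rest of the 13 measured were within 1.5-fold. Ebi3, a subunit of IL-35, had 12 and 22 UMIs, while no UMI of its partner Il12a was found in members of either library. Il10 had 48 and 56 UMIs in 14 and 20 members, a ratio of 0.28 (-0.28 to 0.89), so a difference in Il10 was not detectable at this depth.

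Receptors for costimulation and inhibition had mostly higher levels in DT, by small ratios. All 9 measured genes of the TNF receptor list had ratios above 0, with a median of 0.35 (0.13 in Foxp3-negative cells), but Tnfrsf9 alone passed 1.5-fold, a share near that of all genes, at 0.64 (0.47 to 0.82), and was seen in 55.3% of PBS and 73.2% of DT members. Tnfrsf4 was seen in 78.0% and 91.1% of members and its ratio was 0.54. Il2ra, the alpha chain of the IL-2 receptor, stood at 246 and 396 CPM, a ratio of 0.68 (0.41 to 0.97), and Il2rb at 0.58. Of 15 genes of IL-2 receptor and STAT5 signalling, 2 were higher and 1 lower, 9 had ratios below 0, and the median was -0.14. Of the STAT5 targets, Cish was higher at 0.65 and Socs2 lower at -0.65, but Socs2 was at 0.20 with cells thinned to 2000 UMIs. Of the 9 inhibitory receptors measured, 8 had ratios above 0, and the median was 0.47 in both kinds of cell. Pdcd1 was detected in 41 PBS members (31.1%) and 60 DT members (48.8%), with a ratio of 0.60 (0.26 to 0.99). All mice had been given an antibody to PD-1, and these values are of its RNA.

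Transcription factors of regulatory T cells other than Foxp3 differed between the libraries to unequal degrees. Ikzf4 (Eos, a partner of Foxp3 in gene repression, chr10:128630843-128645991, minus strand) had 31 UMIs in 22 PBS members and 74 UMIs in 51 DT members, a log2 ratio of 1.24 (0.71 to 1.99), and no cell held more than 4. After thinning it was seen in 7.26% and 24.0% of members, and in the Foxp3-negative cells the ratio was 0.62. Ikzf2 stood at 0.41 (0.28 to 0.53). Gata3 was at 0.23 and Tbx21 (T-bet), at 14 and 15 UMIs, at 0.14. Gpr83, a receptor gene of regulatory T cells, had 21 UMIs in 11 PBS members and 3 UMIs in 3 DT members.

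Genes of resting, recirculating T cells were lower in DT members. Of 14 measured, 5 were at least 1.5-fold lower and none was higher, and 11 had ratios below 0, with a median of -0.41. In Foxp3-negative Cd4 T cells 15 of 16 of the same genes had ratios above 0, with a median of 0.31. Klf2, the transcription factor that drives the exit receptor S1pr1, was detected in 68 of 132 PBS members and 34 of 123 DT members. Its level was 388 CPM in PBS members and 180.4 CPM in DT members, a ratio of -1.08 (-1.42 to -0.79), against 362 and 382 CPM in the Foxp3-negative cells. Tcf7 (TCF-1) was seen in 22 and 10 members, with a ratio of -1.23 (-2.28 to -0.56), Lef1 in 40 and 20 members, at -0.84 (-1.66 to -0.22), and Foxp1, a factor that keeps T cells quiescent, in 53 and 31 members, at -0.82 (-1.40 to -0.34). The homing receptor Ccr7 was less apart, at -0.52 (-1.23 to 0.08), with an interval that includes 0. Il7r, the IL-7 receptor, was at 0.26. Klf3, a repressor of the same family as Klf2, was at -0.92, with 46 and 21 members. Not all of these calls held among members with Cd4 detected, where Klf2 was at -0.69 and Tcf7 at -1.04 but Lef1 was at -0.57, Foxp1 at -0.36 and Klf3 at -0.31. Without the exclusion genes Lef1 was at -0.44 and Foxp1 at -0.26, and with thinned cells Klf3 was at -0.25.

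Counted cell by cell at 2000 UMIs, which left 124 PBS and 104 DT members, at least 1 of 6 effector genes (Klrg1, Il1rl1, Areg, Ccr8, Itgae, Icos) was seen in 65.3% of PBS members (56.3% to 73.6%) and 75.0% of DT members (65.6% to 83.0%). Without thinning the shares were 78.8% and 92.7%. Among Foxp3-negative Cd4 T cells the thinned shares were 34.3% and 33.6%. The thinned intervals of PBS and DT members overlap. The unthinned ones, 70.8% to 85.4% and 86.6% to 96.6%, do not. Ctla4 and Tcf7 were among the genes set side by side in members with and without Klrg1 detected. In thinned cells, Ctla4 was seen in 18 of 20 Klrg1-detected PBS members and 24 of 28 in DT, against 54.8% and 71.1% of the other members. Tcf7 was seen in none of the 20 and 28 and in 10 and 6 of the others.

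Receptors for chemokines and trafficking signals were lower for 3 of 18 genes and higher for 2, where 6.25% of all genes were lower and 8.53% higher. The list median was -0.18, against 0.08 in Foxp3-negative cells, and it was 0.05 among members with Cd4 detected. Cxcr6, the receptor for the membrane chemokine Cxcl16 in lung, had 123 UMIs in 32 PBS members and 25 UMIs in 14 DT members, a log2 ratio of -2.08 (-2.91 to -1.59). In Foxp3-negative Cd4 T cells, which held more of it, the ratio was -0.24. The richest PBS member held 26 Cxcr6 UMIs, and without the richest member of each library the ratio was -1.98. S1pr4 was at -0.59 and Ccr9, a gut homing receptor, at -1.21. When cells with an exclusion gene were also counted as members, they were within 1.5-fold, at -0.24 and -0.15. Ccr6 was at 1.24 on 10 and 27 UMIs, of which 10 came from 1 DT cell. Ccr2, high in regulatory T cells of both libraries, was at -0.36. Of the chemokines that T cells secrete, Ccl5 was seen in 47 members of each library at 0.80, against 1.11 in Foxp3-negative cells, whereas Ccl3 had 65 and 9 UMIs and Ccl4 167 and 83. Ccl3 was seen in 6.82% of PBS and 4.88% of DT members, but Ccl4 in 8.33% and 11.4%. Without the richest member of each library Ccl3 was at -1.98 and Ccl4 at -0.55. Without members rich in RNA of other cells they were at -1.47 and 0.11, so the direction of Ccl4 was not stable.

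Interferon-stimulated genes were lower in DT members: 22 of 27 had ratios below 0, 5 were at least 1.5-fold lower and none was higher, with a median of -0.32. In Foxp3-negative Cd4 T cells 30 of 31 had ratios above 0, with a median of 0.24. Ifit3, an interferon-induced antiviral gene, was seen in 18 PBS members and 3 DT members (63 and 16 UMIs), a ratio of -1.70 (-2.79 to -1.09), against 1.24 in the Foxp3-negative cells. Isg15, a ubiquitin-like modifier, stood at -0.62 (-1.04 to -0.25) and Ifit1 at -0.63 (-1.25 to -0.10). Irf1, a transcription factor of the interferon response, was near level at 0.03, as were the MHC class I genes H2-K1 (0.00) and B2m (0.06). The other lower genes of the list were Ifit2 and Ifi206. Among the 62 members of each library with Cd4 detected, Ifit3 was at -0.71, Isg15 at -0.33, Ifit1 at -0.06 and Ifi206 at -0.03, and the list median was -0.15, so of these genes Ifit3 alone stayed past 1.5-fold.

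**Figure D3:**
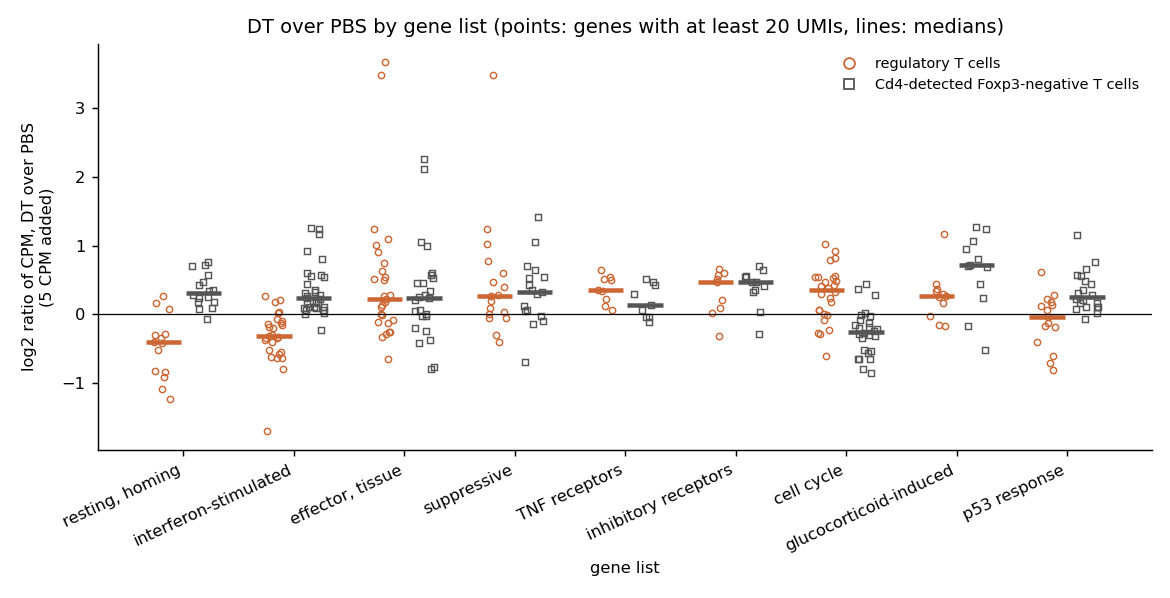
Log2 ratio of CPM, DT over PBS, with 5 CPM added (y axis), for the genes of 9 lists (x axis), in regulatory T cells (circles) and Cd4-detected Foxp3-negative T cells (squares). Each point is 1 gene with at least 20 UMIs and each line is the median of its list. The medians of resting, interferon-stimulated and cell cycle genes lie on opposite sides of 0 in the 2 kinds of cell, as do those of the p53 response by a smaller margin, whereas those of effector, suppressive and inhibitory genes lie close together.

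Cell cycle genes had ratios above 0 in 20 of 26 cases in regulatory T cells, with a median of 0.35, and in 4 of 26 cases in Foxp3-negative cells, with a median of -0.25. Over all genes, ratios above 0 numbered 4086 of 7500 and 5675 of 9768. Among members with Cd4 detected the list median was 0.17. Mcm3, a subunit of the replication helicase, had 43 and 86 UMIs, a ratio of 1.02 (0.53 to 1.64), and Rrm1, a subunit of ribonucleotide reductase, stood at 0.92 (0.37 to 1.63). Ccnb1 and Cdc20 were also higher, and Ube2c was lower at -0.60. At 2000 UMIs per cell, 10 of 124 PBS members (8.06%, 3.94% to 14.3%) and 14 of 104 DT members (13.5%, 7.56% to 21.6%) held at least 2 of 6 mitotic genes. These intervals overlap, and the same share in Foxp3-negative Cd4 T cells was 5.05% and 4.96%. Among PBS members with Cd4 detected it was 15% (9 of 60).

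Genes of T cell receptor and NF-kB signalling were higher for 4 of 17 and lower for 1, with a median of 0.22. Of all genes, 8.53% were higher and 6.25% lower. In male-called members the list median was -0.0074. Tnfaip3 (A20, a brake on NF-kB) was seen in 31 PBS and 52 DT members, with a ratio of 1.08 (0.61 to 1.68) against 0.69 in Foxp3-negative cells. Rel, the NF-kB subunit c-Rel that acts on Foxp3, was seen in 23 and 39 members, with a ratio of 0.80 (0.22 to 1.53) against -0.14. Nr4a1, an early response gene of receptor signalling, stood at 1.26 on 23 and 57 UMIs, 19 of them in 1 DT cell, and Egr3 rested on 1 PBS and 5 DT cells. Irf4, named above, was the lower gene. The receptor chains and proximal kinases were near level, with a median of -0.03 over 19 genes.

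Genes of the response to irradiation and of stress were mostly within 1.5-fold in regulatory T cells. Of 15 measured genes of the p53 response, 1 was higher and 3 were lower, with a median of -0.04: Cdkn1a (p21) stood at -0.17 and Mdm2 at 0.07, whereas Bbc3, Sesn1 and Fas were at -0.81, -0.60 and -0.70. In Foxp3-negative cells 19 of 20 had ratios above 0, with a median of 0.25. Glucocorticoid-induced genes had a median of 0.26, with Per1 alone higher at 1.17, and in Foxp3-negative cells 8 of 12 were higher with a median of 0.71. Of 12 heat shock genes, 9 had ratios below 0, as did 11 of 13 in Foxp3-negative cells, and the median was -0.12. Hspa1a (-1.03), Hspa1b (-0.83) and Dnajb1 (-0.67) were lower, and Hspd1 was higher at 0.63 but at -0.05 with thinned cells. Glycolysis genes had a median of 0.30, with Ldha, lactate dehydrogenase, at 0.44 and Slc16a3, the lactate exporter, higher at 0.69.

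The 12 genes with the largest ratios towards DT among those with at least 100 UMIs were Xist, Mt1, Gzmb, Ikzf4, Ctla2a, Gm21887, Il1rl1, Tnfaip3, Atp2b4, Ctsw, 1700017B05Rik and Itgav. Xist, which silences 1 X chromosome in female cells, stood at 3.19 in both kinds of cell. Gm21887 lies on the X chromosome too (chrX:170009659-170019281, plus strand). Mt1, a metallothionein, was at 1.36 (0.91 to 1.97), in 14 and 26 members, and 51.2% of its PBS UMIs came from 1 cell. Ctla2a, an inhibitor of cathepsin-type proteases, was at 1.23 (0.99 to 1.497), with 189 and 424 UMIs in 54 and 65 members, against 0.46 in Foxp3-negative cells. Atp2b4, a plasma membrane calcium pump, was seen in 37 and 59 members at 1.05. Ctsw, a cathepsin of cytotoxic lymphocytes, was also at 1.05, but at -0.32 with thinned cells.

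Several of the largest ratios towards PBS were of genes of other cell types and came in large part from single cells. Lyz2, the lysozyme of macrophages and neutrophils, had a ratio of -3.55, and 49.4% of its 385 PBS UMIs came from 1 member. Ccl17, a dendritic cell chemokine, had 95.3% of its PBS UMIs and all of its DT UMIs in 1 cell each. In DT, 1 cell held 94.3% of the UMIs of H2-Eb1 and 77.0% of those of Cd74, both of the MHC class II pathway. Over all members, mononuclear phagocyte markers summed to 1026 UMIs in PBS and 452 in DT, and B cell markers to 2733 and 1519, with Pax5 and Ebf1 at 0 in both and Cd22 at 0 in DT. The phagocyte sums include Ccr2 (233 and 171 UMIs), which was high in regulatory T cells of both libraries. The B cell sums include Cd74 (1619 and 758 UMIs). These sums are therefore not a measure of RNA from other cells alone. Markers of other cells, with Ccr2 and Cd74 counted among them, exceeded 1% of UMIs in 6 PBS members and 1 DT member. Without those cells Lyz2 was at -0.82, Cd74 at -0.26 and Fabp5, a fatty acid carrier given as -1.34 otherwise, at 0.15, while Gzmb (1.35), Ikzf4 (1.18), Itgav (1.08), Klf2 (-1.18) and Cxcr6 (-2.20) stayed close to their values over all members. Gzma (-1.41) had 76.2% of its PBS UMIs in 1 cell. The remaining 3 of the 12 largest ratios towards PBS not named so far were Fcer1g (-1.75), Ifi30 (-1.18) and Cldnd1 (-0.98).

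Within cells of 1 called sex the number of members was small. Male-called members (76 in PBS, 12 in DT) had ratios of 0.82 for Gzmb, 0.73 for Ikzf4, 1.24 for Itgav, -2.47 for Klf2 and -2.85 for Cxcr6, on the same side of 0 as over all members. The 12 male-called DT members held 7 UMIs of Ikzf4, 5 of Klf2 and 2 of Cxcr6, so those ratios rest on few counts. Female-called members (6 in PBS, 74 in DT) had 2.54 for Gzmb, 1.98 for Itgav and -1.01 for Klf2. Their PBS side was 5 Gzmb UMIs in 1 cell, 2 Itgav UMIs in 2 cells and 12 Klf2 UMIs in 3 cells. The Itgav count lies under the 3-UMI floor. The 6 female-called PBS members held no UMI of Cxcr6 or Ikzf4, whereas the 74 of DT held 13 and 50, in 10.8% and 48.6% of cells. By the 3-count floor, 0 of 6 allows a share of up to 50% of cells with a UMI. The lower Cxcr6 of DT was therefore not seen there, but no direction can be read for either gene. The medians of the resting list were -0.57 in male-called and -1.04 in female-called members, and those of the interferon list were -0.86 and -0.73. The effector list, in contrast, had a median of -0.14 in male-called and 0.73 in female-called members. Klrg1 was detected in 25 of 76 male-called PBS members and 4 of 12 male-called DT members, shares of 32.9% and 33.3%, and in 31 of 74 female-called DT members (41.9%) and 2 of 6 in PBS. Il1rl1 was seen in 14 of 76 and 0 of 12 male-called members, and by the 3-count floor 0 of 12 allows a share of up to 25% of cells with a UMI. Areg was seen in 1 of 76 and 2 of 12. The higher shares of Klrg1 and Il1rl1 in DT were therefore not seen among male-called cells, of which there were 12. A call needs a UMI of Xist or a Y-linked gene, and called members held more UMIs on average than members without one. Klrg1 was seen in a larger share of male-called PBS members than of all PBS members. Shares of called cells are thus not like those of all members, and the part of depth in them was not tested.

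**Figure D4:**
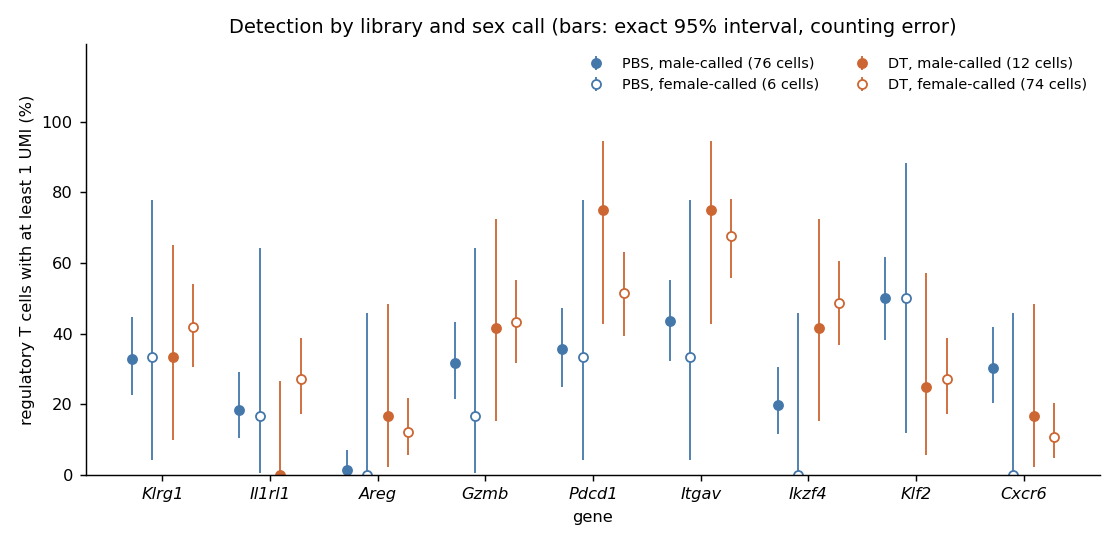
Percent of regulatory T cells with at least 1 UMI (y axis) of 9 genes (x axis), by library and by sex call from Xist or Y-linked RNA, with exact 95% intervals for counting error and the number of cells in the key. Filled circles are male-called and open circles female-called. The intervals of the 12 male-called DT and 6 female-called PBS cells are wide, and Klrg1 is at 32.9% and 33.3% in male-called cells of PBS and DT.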

How the data were processed

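The authors deposited 1 table of log2 values per library, genes by cells, and by those values each is the log2 of CPM plus 1. Per the submitters' processing notes, Partek, Seurat, STAR and the mm10 build were used; the sources used here name no versions, settings, cell filters or doublet removal. Undoing the logarithm gave whole UMIs: 100% of deposited values of up to 5 UMIs were whole within 1%. The design had allowed for counts or means, and summed UMIs were used. Each of 2 groups (PBS, DT) was 1 library, so no count model was fitted and no p-value computed. UMIs were summed over cells and compared as log2 ratios of CPM with 5 CPM added, for genes with at least 20 UMIs. Shares have exact Clopper-Pearson intervals and plain UMI ratios exact conditional binomial (Poisson) intervals, at 95%; amplified reads enter only as UMIs, and intervals and the 3-UMI floor cover counting error only. Thinning was to 2000 UMIs per cell.

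Members and the 33 gene lists were chosen with earlier results of these data known. Named genes were the 12 per direction with the largest ratio among genes with at least 100 UMIs and at least 1.5-fold apart (for the comparison with Foxp3-negative cells, in both libraries), plus genes of the lists. No doublet caller was run; exclusion genes and alternatives without the 6% of members with the most UMIs, or with RNA of other cells, stand in. Coordinates are of GENCODE M21 (GRCm38, the build of mm10). Scripts used Python 3.11.15, NumPy 2.4.6, SciPy 1.17.1, pandas 2.3.3 and matplotlib 3.10.9, and the summing and interval code was tested on simulated data. Some genes of the lists and 1 state defined on them are not reported here.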

Additional observations from a re-analysis of the deposited data

How the results depend on the processing

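No paired analysis was possible because each group was 1 library. Across the alternatives (other membership rules, cell filters, depths, scalings, weights, added CPM and sexes), 111 of the shares, state percentages and gene counts stayed within their interval or within 1.5 times and 29 did not. Of medians of lists, 347 stayed within 0.2 of the value reported, 42 moved further and 10 of at least 0.2 either way changed sign. Sign changes of smaller medians are counted among those that stayed or moved. Of single genes, 1877 values stayed within the counting interval, 352 moved outside it with the same direction or from within 1.5-fold, and 36 changed sign from at least 1.5-fold. Median-of-ratios and trimmed mean scaling turned the direction of no gene past 1.5-fold and of no list median past 0.2. The causes of the changes below were not tested, except that fewer genes pass a higher minimum and fewer cells carry a sex call.

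Restricted to male-called cells the ratio of shares was 0.431, and restricted to female-called cells it was 2.32. Genes at least 1.5-fold lower in DT numbered 1072 in male-called cells, and genes higher numbered 1308 in female-called cells. With 20 CPM added, 222 genes were higher and 180 lower, and with a minimum of 100 UMIs, 67 and 68. For regulatory against Foxp3-negative T cells in PBS, 20 CPM gave 402 higher and 309 lower, 100 UMIs gave 305 and 175, and means of the deposited values gave 483 lower. In DT these were 491 and 464, 322 and 222, and 421. Effector genes were seen in 48.9% of PBS and 56.2% of DT members at 1000 UMIs per cell, where cycling DT members were 7.44%, and in 78.8% and 92.7% without thinning. Among Cd4-detected members, PBS had 15% cycling. Male-called DT members had 63.6% effector and 0% cycling. Female-called PBS members had 40.0% and 0%, and female-called DT members 85.9% effector.

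The following DT over PBS log2 ratios changed sign, among genes past 1.5-fold and list medians past 0.2 over all members. Smaller list medians that changed sign are not listed. An example is the median of IL-2 receptor and STAT5 genes, -0.14 over all members and 0.11 with Cd4 also detected. With Cd4 also detected, Phlda3 was -0.39. Without exclusion genes, Ube2c was 0.016, Hk2 0.16 and the cytokine list 0.22. Without the 6% of members with the most UMIs, Ube2c was 0.46. Thinning to 2000 UMIs gave Ctsw -0.32, Socs2 0.20, Jun 0.0400, Hspd1 -0.0472 and Ube2c 0.0786. Leaving out members with RNA of other cells gave Fabp5 0.15, Ccl4 0.11 and the cytokine list 0.20. The mean of per-cell CPM gave Irf4 0.0154 and the cytokine list 0.0595. The mean of deposited values, compared as a difference of mean log2 values, gave Fabp5 0.15, Ccl4 0.17 and the cytokine list 0.23. In male-called cells the values were Ccl4 0.93, Cdc20 -0.33, Ddx3y 0.10, Eif2s3y 0.51, Kdm5d 0.10, the effector list -0.14, the cytokine list 0.93, the T cell receptor and NF-kB list -0.0074 and the glucocorticoid list -0.23. In female-called cells they were Xist -0.071, Fcer1g 1.42, Gzma 4.04, Fabp5 0.86, Ifi30 0.71, H2-Eb1 6.01, Cd74 2.30, Pdcd1 -0.78, Cd96 -1.40, Socs2 4.04, S1pr4 0.34, Ccl4 3.51, Phlda3 -0.93, Per1 -0.93, Dnajb1 0.12, Ube2c 5.37, Mcm3 -0.23, the inhibitory list -0.71 and the cytokine list 3.36. The PBS side of these values was 6 cells, with 0 UMIs of Gzma, H2-Eb1 and Ccl4, 1 of Fcer1g and 2 of Fabp5. For these genes it lay under the 3-UMI floor, so no direction is read from them.

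Outside the sex-called cells, the resting list stayed between -0.58 and -0.34, the interferon list between -0.49 and -0.12, the identity list between 0.05 and 0.60, Gzmb between 1.08 and 1.71, Klf2 between -2.26 and -0.69, Cxcr6 between -2.33 and -1.19 and Ikzf4 between 0.93 and 1.93. Areg ranged from 0.80 to 4.45, and Ifit3 from -2.91 to -0.71, the latter among Cd4-detected members. The ends at -0.49 for the interferon list, -2.26 for Klf2, -1.19 for Cxcr6 and 1.93 for Ikzf4 came from the means of deposited values. That setting takes the difference of mean log2 values per cell, cells without a UMI included, so its values are not log2 ratios of CPM. With 1 library per group, depth and animals limit what any of these ratios shows.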
